A study of Mus musculus with 6 samples.

Results

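The genes described here encode the cytoskeleton by which neurons and their progenitors are recognised in the embryonic brain. They were 10 genes found by symbol in the probe annotation, out of 12393 genes named on the arrays, and all 10 were among the 8631 genes tested. The tubulins Tubb3, Tubb2b and Tuba1a, the microtubule-binding proteins Map2 and Mapt and the filament proteins Ina, Nefl and Nefm formed a neuronal set of 8, and the filament proteins Nes and Vim a progenitor set of 2. Together the 10 genes had 19 probe sets that name a single gene, and the probe set of highest mean signal stood for each gene.

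The diabetic group consisted of 3 malformed brains of Swiss Albino embryos at E11.5 whose mothers had been made diabetic with streptozotocin, a toxin of pancreatic beta cells, and the control group of 3 brains of the same strain and stage from normal mothers. Each brain had its own Affymetrix array. Diabetic replicates 1 and 2 and control replicates 1 and 2 were on the MOE430A chip and are in a first value table, and replicate 3 of each group was on the Mouse430A_2 chip and is in a second table. The effects of the mother's diabetes and of the malformation cannot be told apart here, the labels do not say whether brains shared a litter, and in a whole brain fewer cells of a type and less RNA per cell cannot be told apart.

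As background, dividing progenitors of the neural tube span the wall of the tube and hold filaments of nestin and vimentin. Their neuronal daughters leave the cell cycle, move outward and build axons on microtubules rich in neuronal tubulin chains, stabilised by tau and Map2. Neuronal intermediate filaments follow, with alpha-internexin among the earliest in the brain and the neurofilament chains Nefl and Nefm joining it. At this stage the wall still consists largely of progenitors, with the first layers of neurons at its outer edge.

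The promoters of these genes are shown because the neuronal members varied together across the arrays, as described further on. Shared regulation was not tested. RefSeq promoter windows on GRCm38.p6 matched 6 of the 10 genes. The 4 shown are those of the gene with the lowest change (Ina), the standard neuronal tubulin (Tubb3) and both progenitor genes, each as the 250 bases before the start of the gene on its plus strand, from 5′ to 3′. Capitals mark matches on either strand to the E-box read by basic helix-loop-helix factors (letters CANNTG), the TATA box (letters TATAAA), the GC box (letters GGGCGG) and the CCAAT box (letters CCAAT). The Ina window lies at chr19:47014431-47014680, the Tubb3 window at chr8:123411303-123411552, the Nes window at chr3:87970843-87971092 and the Vim window at chr2:13574061-13574310.
Ina: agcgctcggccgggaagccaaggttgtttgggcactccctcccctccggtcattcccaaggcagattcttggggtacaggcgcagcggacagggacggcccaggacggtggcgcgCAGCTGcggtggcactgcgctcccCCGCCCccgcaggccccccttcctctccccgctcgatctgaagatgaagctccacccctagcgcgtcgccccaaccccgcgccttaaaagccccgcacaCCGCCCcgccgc
Tubb3: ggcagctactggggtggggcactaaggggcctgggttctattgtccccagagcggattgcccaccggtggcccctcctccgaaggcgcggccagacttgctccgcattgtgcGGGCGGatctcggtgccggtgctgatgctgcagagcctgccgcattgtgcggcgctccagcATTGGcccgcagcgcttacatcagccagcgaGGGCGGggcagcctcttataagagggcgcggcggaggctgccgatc
Nes: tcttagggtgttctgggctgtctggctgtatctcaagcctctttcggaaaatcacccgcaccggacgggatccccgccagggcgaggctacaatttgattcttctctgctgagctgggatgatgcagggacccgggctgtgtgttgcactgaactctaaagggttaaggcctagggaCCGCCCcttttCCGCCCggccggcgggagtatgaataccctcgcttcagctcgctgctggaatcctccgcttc
Vim: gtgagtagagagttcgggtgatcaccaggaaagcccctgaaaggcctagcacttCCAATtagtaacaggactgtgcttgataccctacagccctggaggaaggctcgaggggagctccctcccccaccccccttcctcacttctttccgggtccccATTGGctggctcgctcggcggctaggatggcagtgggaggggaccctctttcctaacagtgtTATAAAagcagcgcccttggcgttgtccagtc

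The Ina window held 1 E-box match, 135 bases before the start, and 2 GC box matches. Tubb3 held 2 GC box matches and 1 CCAAT box match, Nes held 2 GC box matches, and Vim held 2 CCAAT box matches and a TATA box match 32 bases before the start. Over the 6 windows, 5 held a GC box, 3 a CCAAT box, 2 an E-box (Ina and Tuba1a) and 1 a TATA box. Of 32851 RefSeq promoter windows of the same length, 32.7% held a GC box, 33.8% a CCAAT box, 66.2% an E-box and 12.4% a TATA box. Matches of different motifs overlapped once, at 1 place in Tuba1a. The G and C content of the 6 windows ran from 56.8% in Tuba1a to 81.2% in Map2, against a median of 52.4% over all windows. A match is a run of letters and was not tested as a binding site.

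All arrays had been scaled alike by the authors, with a trimmed mean of 500.1 to 500.2 before rescaling. The labelled tissue was checked against markers of neuroepithelium, of which 9 of 10 had a probe set naming that gene alone and all 9 were tested. Sox2, a transcription factor of neural progenitors, had signals of 1991, 2699 and 2992 on diabetic replicates 1 to 3 and 1669.8, 2032 and 2907 on control replicates 1 to 3. Over the genes tested, Pearson correlations ran from 0.935 to 0.975 between arrays of 1 chip and from 0.877 to 0.930 between chips, and every difference was taken within a table. Within the first table, the lowest mean correlation with the other arrays belonged to diabetic replicate 2 (0.949) and the next to control replicate 1 (0.952), against 0.962 for each of the others. Control replicate 1 also had a signal of 4338 on the 5′ control probe set for 18S ribosomal RNA, against 71.9 to 165 on the other arrays. The Gapdh control probes, a check of RNA length, gave 3′ over 5′ ratios of 0.815, 0.802 and 0.701 on diabetic replicates 1 to 3 and 0.812, 0.809 and 0.725 on control replicates 1 to 3, so it followed the table and overlapped between the groups.

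Diabetic and control brains were compared to ask whether genes of neuronal or progenitor cytoskeleton differ between them. None of the 10 genes passed: limma called 0 of 8631 genes at an adjusted p under 0.05, a share of 0%, with a smallest adjusted p of 0.526. At an unadjusted p under 0.05 it counted 655 genes, 7.59% of those tested, and on the lower side 3.87%, among them 2 of the 10, Ina and Tubb2b. Log2 changes, taken as diabetic minus control on the log2(signal + 32) scale, lay below 0 for 8 of 8 neuronal genes, with a median of -0.24, and above 0 for Nes and Vim. Over all genes tested, 47.8% lay below 0 and the median was 0.012. Split by table, 8 of 8 neuronal genes lay below 0 in the first, with a median of -0.48, where 50% of all genes did, and 5 of 8 in the second, with a median of -0.036, where 46.4% did. Without diabetic replicate 2 only 4 of 8 neuronal genes lay below 0, with a median of -0.0060, against 45.7% of all genes, while Nes and Vim stayed above 0. Errors of log2 changes below are standard errors from the fit of 3 diabetic against 3 control arrays. Differences between the tables come from a separate fit with a change for each table.

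**Figure D1:**
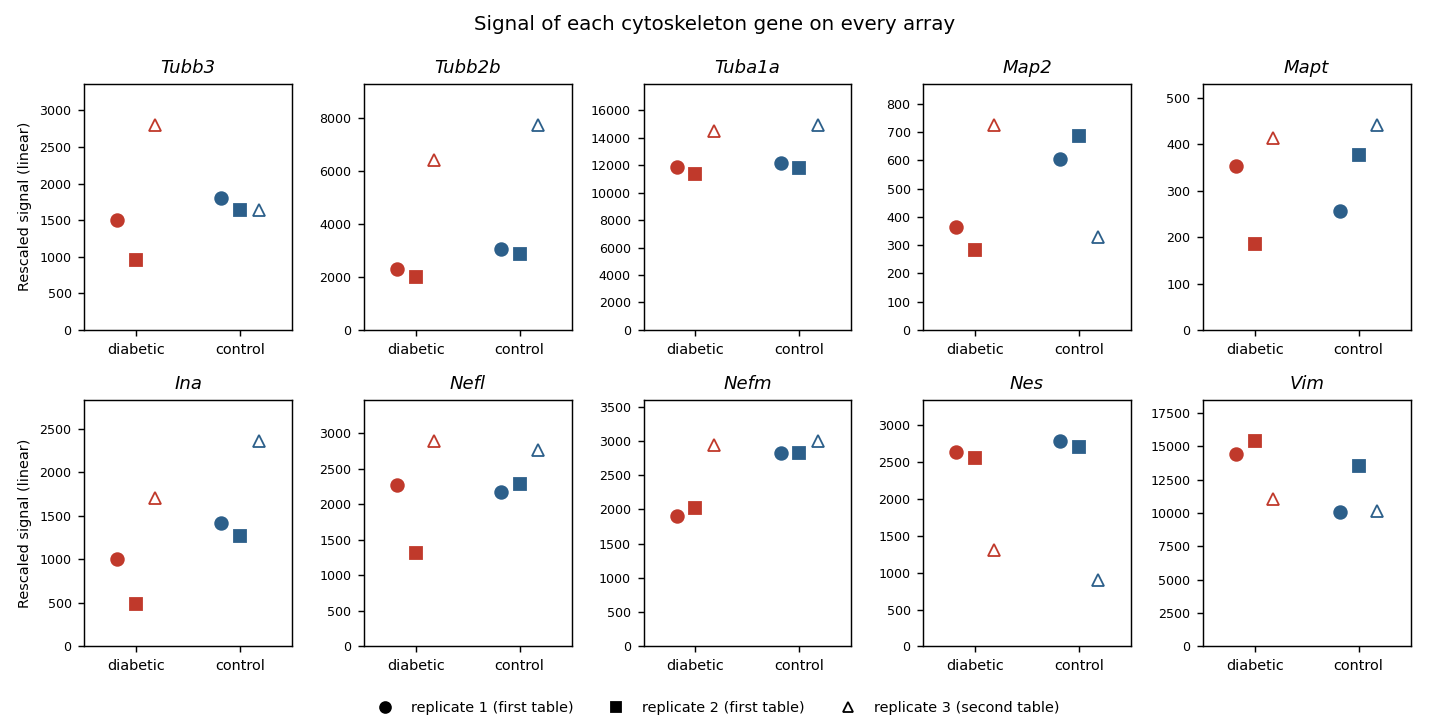
Rescaled linear signal (vertical axis, from 0) of the 10 genes on every array, with diabetic arrays left and control arrays right in each panel. Filled circles and squares are replicates 1 and 2 in the first table and open triangles replicate 3 in the second table. Ina, Tubb2b and Nefm lie lower on the diabetic arrays of each table, while Tubb3 and Map2 lie lower in the first table and higher in the second.

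Among the tubulins, Tubb2b, a beta chain abundant in newborn neurons, had signals of 2302, 1990.01 and 6415 on diabetic replicates 1 to 3, against 3063, 2874 and 7762 on control replicates 1 to 3. Within each table every diabetic array lay below every control array, and the diabetic group was at 0.757 of the control level on the log2(signal + 32) scale. That is a log2 change of -0.40 ± 0.15, with a 95% interval from -0.75 to -0.054 and a limma adjusted p of 0.646. It was -0.47 in the first table, -0.27 in the second and -0.32 without diabetic replicate 2.

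Tubb3, the class III beta chain used as a label of neurons, went opposite ways in the 2 tables. Its signals were 1508, 959 and 2805 on diabetic replicates 1 to 3, against 1802, 1642 and 1640.2 on control replicates 1 to 3. Both diabetic arrays of the first table lay below their controls, and diabetic replicate 3 lay well above its own. On the log2 scale the first table gave -0.50 and the second 0.76, or -0.082 ± 0.27 over both (limma adjusted p = 0.946, 95% interval from -0.70 to 0.53). The difference between the tables was 1.27 ± 0.42, with an unadjusted p of 0.0182 and an adjusted p of 0.675 from limma. Here and for Map2 below, that error and p rest on the spread of the first table's arrays. The second table has 1 array a group, so the spread between brains on its chip is not measured.

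Tuba1a, the main alpha chain of young neurons, had signals of 11855, 11397 and 14460 on diabetic replicates 1 to 3, against 12151, 11836 and 14957 on control replicates 1 to 3. The groups overlapped in the first table, where diabetic replicate 1 lay between both controls. Its log2 change of -0.046 ± 0.15 was smaller than its error, with a 95% interval from -0.37 to 0.28 and a limma adjusted p of 0.943. The probe set carries the suffix x_at, which Affymetrix gives to probes that may also bind similar sequences, and the share of other alpha tubulin transcripts in its signal was not tested. A further probe set lists Tuba1a with the gene Gm6682 and another lists Tubb2b with Tubb2a-ps2, and neither of these 2 was used.

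Of the microtubule-binding proteins, Map2, a marker of dendrites and cell bodies, showed the widest gap between the tables among the 10 genes. Its signals were 365, 284 and 727 on diabetic replicates 1 to 3, against 604, 688 and 330.01 on control replicates 1 to 3. On the log2 scale the first table gave -0.93 and the second 1.07, a difference of 2.0 ± 0.34 with an unadjusted p of 5.45e-04. After adjustment in limma that difference had a p of 0.470, equal to the smallest over all genes. Several genes can share an adjusted p, so this does not place Map2 first among them. For a difference between tables limma called 0 of 8631 genes, with 588 at an unadjusted p under 0.05. Over both tables the change of Map2 was -0.27 ± 0.35 (limma adjusted p = 0.852). The other Map2 probe set gave -1.31 and 1.5, so the turn of sign was seen on both probe sets.

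Mapt, which encodes the axonal protein tau, had signals of 354, 185 and 413 on diabetic replicates 1 to 3, against 257, 378 and 443 on control replicates 1 to 3. The groups overlapped in the first table, where control replicates 1 and 2 differed by 0.50 on the log2 scale. Its change was -0.20 ± 0.24 (limma adjusted p = 0.834) and 0.055 without diabetic replicate 2. Its 2 dimmer probe sets gave -0.78 and 0.33, with mean signals of 121 and 111, so the probe sets of Mapt disagreed in sign.

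**Figure D2:**
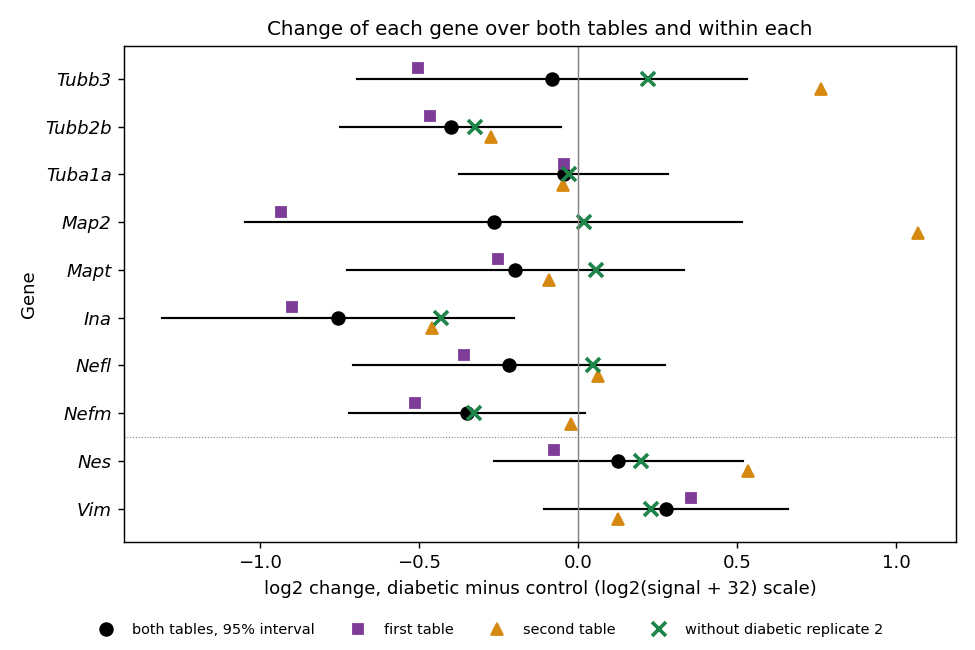
Log2 change of the 10 genes, diabetic minus control, on the horizontal axis, with the 8 neuronal genes above the dotted line and Nes and Vim under it. Black points with bars are the fit over both tables with its 95% interval, squares the first table, triangles the second table and crosses the fit without diabetic replicate 2. The second table moves Tubb3 to 0.76 and Map2 to 1.07, whereas Ina stays between -0.90 and -0.43 in all 4 views.

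Among the neuronal filament genes, Ina, which encodes alpha-internexin, had the largest difference of the 10. Its signals were 1000.04, 492 and 1703 on diabetic replicates 1 to 3, against 1414, 1273 and 2357 on control replicates 1 to 3, without overlap within either table. Over both tables the log2 change was -0.76 ± 0.25, or 0.593 of the control level, with a 95% interval from -1.31 to -0.20, an unadjusted p of 0.0129 and a limma adjusted p of 0.609. The first table gave -0.90 and the second -0.46. Diabetic replicate 2 was the lowest array, at -1.39 from the control mean of its table, against -0.41 for diabetic replicate 1 and -0.46 for diabetic replicate 3. Without that array the change was -0.43.

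The 2 other Ina probe sets gave -0.56 each over both tables and lay below 0 in each table. On the second brightest, diabetic replicate 1 had a signal of 858, between the 760.1 and 1003 of the first table's controls, so the separation of the arrays seen on the brightest probe set was not complete there.

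Nefm, the medium neurofilament chain, had signals of 1905, 2024 and 2945 on diabetic replicates 1 to 3, against 2817, 2819 and 2994 on control replicates 1 to 3. Both diabetic arrays of the first table lay well below controls that differed by only 0.0011 on the log2 scale, while in the second table the gap was -0.023. Over both tables the change was -0.35 ± 0.16 (limma adjusted p = 0.662, 95% interval from -0.72 to 0.020), with -0.51 in the first table and -0.33 without diabetic replicate 2. Here the lower value of the first table did not rest on diabetic replicate 2, since diabetic replicate 1 stood at -0.56 and diabetic replicate 2 at -0.47.

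Nefl, the light chain on which neurofilaments assemble, had signals of 2275, 1307 and 2886 on diabetic replicates 1 to 3, against 2166, 2278 and 2764 on control replicates 1 to 3. Diabetic replicate 1 lay between both controls of its table and diabetic replicate 2 below them. On the log2 scale these arrays stood at 0.034 and -0.75 from the control mean, and diabetic replicate 3 at 0.061. Its log2 change was -0.22 ± 0.22 (limma adjusted p = 0.803) and 0.046 without diabetic replicate 2. Nefl and Nefm, whose products join in 1 filament, thus had their lowest signals on different arrays.

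Of the progenitor genes, Nes, which encodes nestin, had signals of 2637, 2556 and 1312 on diabetic replicates 1 to 3, against 2784, 2699.7 and 897 on control replicates 1 to 3. Diabetic arrays lay just below their controls in the first table and above in the second. The log2 change was 0.13 ± 0.17 (limma adjusted p = 0.861, 95% interval from -0.26 to 0.52), made up of -0.077 for the first table and 0.53 for the second. Its 2 dimmer probe sets lay above 0 in both tables, with 0.20 and 0.37 over both.

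Vim, which encodes vimentin and is also strong in mesenchyme, had signals of 14441, 15388 and 11085 on diabetic replicates 1 to 3, against 10057, 13526 and 10172 on control replicates 1 to 3. Every diabetic array lay above the controls of its table. The log2 change was 0.28 ± 0.17 (limma adjusted p = 0.711, 95% interval from -0.11 to 0.66), and in the first table the controls themselves differed by 0.43. Its other probe sets gave -0.15 and -0.065, so the sign for Vim depended on the probe set. The x_at one of these had 4394, 4476 and 8587 on diabetic replicates 1 to 3 and 4608, 4668 and 10649 on control replicates 1 to 3.

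Counting overlap of single arrays within each table, 3 of the 8 neuronal genes (Tubb2b, Ina and Nefm) had every diabetic array below every control array, against 10.7% of all genes tested, and 1 of the 2 progenitor genes (Vim) had every diabetic array above, against 11.3%. Over all 13 probe sets of the neuronal genes, 12 lay below 0 on the first chip and 7 on the second. Over the 6 probe sets of Nes and Vim, 4 lay above 0 on each chip.

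**Figure D3:**
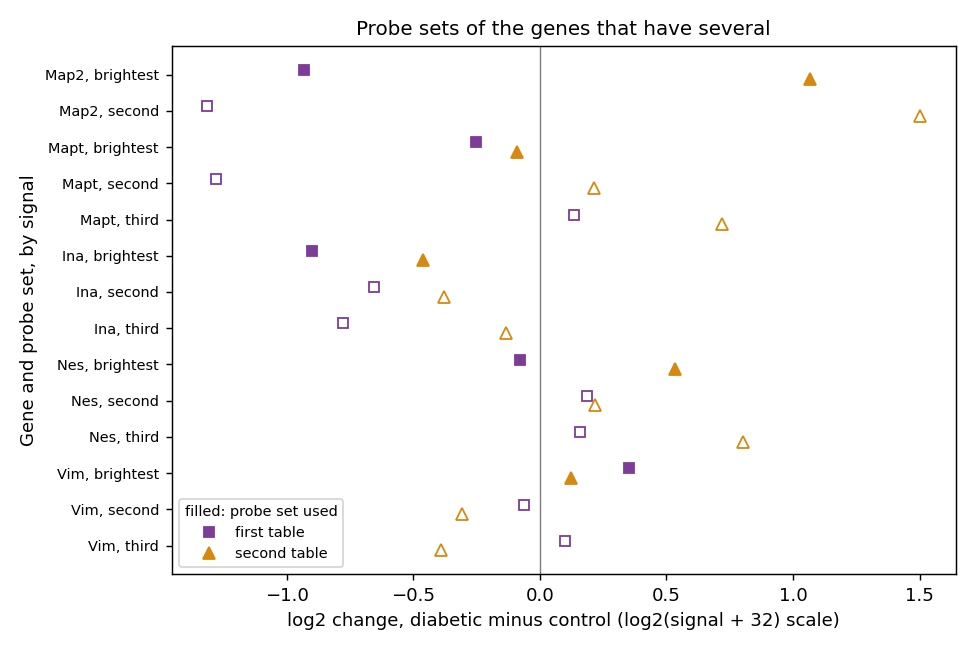
Log2 change (horizontal axis, diabetic minus control) of every probe set of the 5 genes that have several, ordered by signal within a gene. Squares are the first table, triangles the second, and filled symbols the probe set used for the gene. All 3 Ina probe sets lie below 0 in both tables, both Map2 probe sets turn sign between tables, and the dimmer Vim probe sets lie at or below 0.098.

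The neuronal genes were set against Nes and Vim within each array, as the mean log2 signal of the 8 minus that of the 2, which removes any overall shift of an array. Relative to the control mean of its table, this difference was -0.39 on diabetic replicate 1, -0.88 on diabetic replicate 2 and -0.20 on diabetic replicate 3, while control replicates 1 and 2 differed by 0.15. With the brightest probe set of each gene, all 3 diabetic arrays thus lay below their controls. The difference was -0.49 over both tables (residual SD 0.25) and -0.31 without diabetic replicate 2. The parts of it differed by array: the neuronal mean stood at -0.26, -0.73 and 0.12 on diabetic replicates 1 to 3, and the mean of Nes and Vim at 0.13, 0.15 and 0.33. On diabetic replicate 3 the neuronal mean thus lay above its control, and the progenitor mean further above. That progenitor mean takes Vim from its brightest probe set, at 0.12 in the second table. The other Vim probe sets gave -0.31 and -0.39 there. The difference on diabetic replicate 3 was not computed with them, and its sign may depend on the probe set. No p is given, because the genes were proposed with results of these data known.

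The neuronal members varied together. Across the 6 arrays, after the mean of each table was taken off, all 28 pairs of the 8 neuronal genes correlated above 0, with a median Pearson r of 0.60 and a range from 0.24 to 0.94. Vim correlated below 0 with 8 of 8 neuronal genes (median -0.59), Nes above 0 with 5 of 8 (median 0.083), and Nes with Vim at -0.031. These are descriptions over 6 arrays that share tables and scaling, and the table of 2 arrays adds a single contrast. Diabetic replicate 2 was the lowest array for every neuronal gene except Nefm, with Ina at -0.94 and Map2 at -0.63 from the table mean. How far the correlations rest on that array was not tested, and the share of positive pairs over all genes was not computed. Outside the set, the genes most like the neuronal mean were Mrpl58, Ubfd1, Mcam, Tbcc and Gatad2b, with r from 0.995 to 0.999. Tbcc encodes a tubulin folding cofactor and Mcam an adhesion molecule. Those most like the mean of Nes and Vim were Zfp777, Drg1, Tiprl, Ndufv2 and Appbp2os, with r from 0.988 to 0.995. Values this high are what a choice of 5 from 8621 genes over 6 arrays selects for.

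The remaining tubulin chains lay on both sides of 0. Of 9 tested, 3 lay below and 6 above 0, with a median of 0.085, and limma called 0 (0% of all genes). Tubb2a, the beta chain closest to Tubb2b, had signals of 710.2, 764 and 1652 on diabetic replicates 1 to 3, against 1132, 1321 and 2074 on control replicates 1 to 3. All diabetic arrays lay below the controls of their table. Its log2 change was -0.58 ± 0.16 (limma adjusted p = 0.531) and -0.57 without diabetic replicate 2. On the other side Tubb6, a broadly used beta chain outside neurons, had 444, 627 and 603 on diabetic replicates 1 to 3, against 365, 215 and 462 on control replicates 1 to 3. Its log2 change was 0.68 ± 0.23 (limma adjusted p = 0.609). Tubb5, another beta chain, had 0.24, with 0.24 in each table, and Tuba8 had 0.49, from 0.85 in the first and -0.23 in the second. In the second table Tuba8 was dim, with signals of 14.1 on the diabetic and 22.1 on the control array.

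Of 28 other microtubule-binding and regulating genes tested, 17 lay below and 11 above 0, with a median of -0.096 and 0 called in limma. Dpysl3, a phosphoprotein of growing axons, stood at -0.42 ± 0.19, the tubulin cofactor Tbce -0.35 ± 0.16 and the microtubule-severing enzyme Spast -0.39 ± 0.18, and each of these lay below 0 in both tables. Mapre2, a plus-end binding protein, had -1.19 ± 0.55. It read 358, 221 and 2489.9 on diabetic replicates 1 to 3 and 2388, 577 and 1986 on control replicates 1 to 3, so its controls in the first table differed more than the groups of the second. The limma adjusted p of these 4 ran from 0.654 to 0.657.

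Motor subunits were split, with 9 of 15 tested below 0, a median of -0.084 and 0 called in limma. Kif5c, a neuronal kinesin heavy chain, stood at -0.85 ± 0.39, Kif3a -0.48 ± 0.25 and the light chain gene Klc1 -0.45 ± 0.25, while Dync1li1, a dynein light intermediate chain, had 0.48 ± 0.18. Control replicate 1 stood apart for Kif5c and Kif3a. On the first chip Kif5c read 682 and 190 on control replicates 1 and 2, against 234 and 117 on diabetic replicates 1 and 2. Kif3a read 690 and 317 on these controls, against 277 and 317 on these diabetic arrays. Klc1 gave -0.86 on the first chip and 0.36 on the second. Without diabetic replicate 2 the motor median was 0.066.

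Among 11 other intermediate filament genes and partners, 7 lay above and 4 below 0, with a median of 0.067 and 0 called in limma. Krt18, a keratin of simple epithelia, stood at 0.30 ± 0.16, Lmna, the A-type lamin, 0.28 ± 0.19, the linker gene Plec 0.25 ± 0.17 and the linker gene Dst -0.36 ± 0.17. The limma adjusted p of these 4 ran from 0.662 to 0.723.

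**Figure D4:**
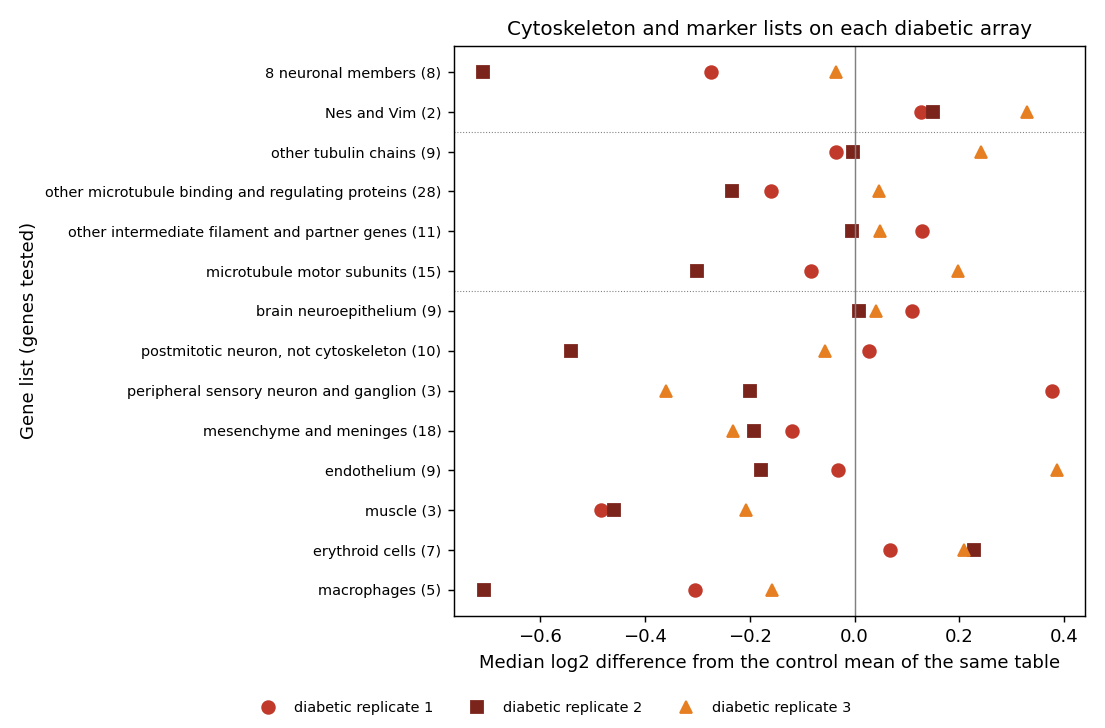
Median log2 difference of each gene list from the control mean of the same table (horizontal axis) on diabetic replicates 1 to 3, with the number of genes tested in parentheses. The upper 2 rows are the genes described here, the next 4 other cytoskeleton lists and the lower 8 cell type markers. Diabetic replicate 2 lies at -0.71 for the neuronal genes, -0.54 for neuronal markers outside the cytoskeleton and -0.71 for macrophage markers. The mesenchyme list lies between -0.23 and -0.12 on all 3 arrays.

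Markers of neurons outside the cytoskeleton were also at their lowest on diabetic replicate 2. Low values on that array were not confined to neuronal lists. Macrophage markers had a median of -0.71 there, muscle markers -0.46 and motor subunits -0.30, while erythroid markers had 0.23. On diabetic replicates 1 to 3 the medians of the neuronal markers stood at 0.027, -0.54 and -0.056. Of these markers 8 of 10 lay below 0 over both tables and 6 of 10 without diabetic replicate 2, with 0 called in limma. Elavl4, which binds neuronal RNAs, stood at -0.60 ± 0.16 and Insm1, a zinc finger factor of new neurons, at -0.82 ± 0.24. Neuroepithelial markers had a median of 0.076, with 5 of 9 above 0. Sox1, a factor of the neural plate, had 0.63 ± 0.16, and Fabp7, the lipid carrier of radial glia, -0.62 ± 0.22. Sox1 was dim, with 180, 160 and 87.2 on diabetic replicates 1 to 3 and 83.0, 112.5 and 47.3 on control replicates 1 to 3.

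Vim and Nes are also made outside the neuroepithelium, so markers of those cells are given beside them. Mesenchyme and meninges markers lay below 0 for 16 of 18 genes, also without diabetic replicate 2, with a median of -0.22 over both tables. Vim stood at 0.28 on its brightest probe set and at -0.15 and -0.065 on its others. The summed signal of the 18 mesenchyme and meninges markers ran from 19852 to 21662 on diabetic arrays and from 21884 to 25675 on control arrays. Ranges of summed signal, here and below, pool both chips and are not differences within a table. Foxd1 had -0.63 ± 0.21 and Postn -0.56 ± 0.19. The 9 endothelial markers tested stood at a median of 0.069, and the 10 on the arrays had a summed signal of 2901 to 3524 on diabetic and 2134 to 3666 on control arrays. Plvap had 0.57 ± 0.15 and Cldn5 0.32 ± 0.17. The 3 muscle markers tested of 8 had a median of -0.50, with Myod1 at -0.50 ± 0.17 and Actc1 at -0.56 ± 0.27, and summed signals over the 8 on the arrays of 453 to 816 on diabetic and 516 to 1630.02 on control arrays.

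Neurofilament genes are also strong in cranial ganglia. Of 11 symbols listed as ganglion markers, 4 had a probe set naming that gene alone and 3 were tested. These were Isl1 with a log2 change of -0.22 ± 0.17, Sox10 with 0.28 ± 0.18 and Prph with -0.091 ± 0.21. The summed signal of the 4 on the arrays ran from 980.1 to 1368 on diabetic and from 1149 to 1207 on control arrays. Avil, a sensory neuron gene, was dim. In the first table it had 17.5 and 16.7 on diabetic and 16.4 and 16.5 on control arrays. In the second it had 54.6 on the diabetic and 5.92 on the control array. The 7 erythroid markers tested stood at a median of 0.16, with Alas2 at 0.38 ± 0.22 and Epb42 at 0.24 ± 0.21, and the 8 on the arrays had a summed signal of 49164 to 57089 on diabetic and 42609 to 51703 on control arrays. The 5 macrophage markers tested stood at a median of -0.28, with Mrc1 at -0.65 ± 0.19 and C1qb at -0.45 ± 0.26, and the 8 on the arrays had a summed signal of 940.1 to 1319 on diabetic and 1062 to 1742 on control arrays. None of these marker genes passed in limma, and the part of other cell types in the values of the 10 genes was not tested.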

How the data were processed

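The authors deposited linear intensity, 1 value per probe set and array, in 2 value tables with 4 arrays in the first and 2 in the second, on the chip types named per the file headers. The submitters' processing notes name GCOS, the Affymetrix software; its version and how it summarised probes were not given in the sources used here, and dim signals depend on that step. Of 22690 probe sets per table, 20380 name 1 gene in the platform annotation, 691 several and 1555 none, and 64 are array controls. Of the 20380, 20351 matched a RefSeq identifier, which changed 0 symbols.

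Arrays were rescaled to a mean of 500 after trimming 2% at each end, a shift of 0.0363% or less, and put on the log2(signal + 32) scale, which understates fold changes of dim genes. The probe set of highest mean signal stood for a gene, and 8631 genes at a mean of 100 or more entered limma 3.58.1 in R 4.3.3 (lmFit, eBayes, two-sided, Benjamini-Hochberg over all genes tested, threshold 0.05). The value table was a block. Residual degrees of freedom were 3 plus 6.37 from the prior, and the median standard error was 0.17. Arrays have no counting depth, and their number limits the precision.

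The members and lists were chosen with earlier results of these data known. Text names all 10 members, the 4 genes of smallest p in each other cytoskeleton list, the 2 of smallest p in each marker list, and the 5 genes most correlated with each set's mean; Sox2, Prph and Avil were named outside this rule, after their values were seen. The test of the difference between tables was also chosen after the data were seen. Replicate numbers are shared between groups, but same-numbered arrays of the first table did not deviate together (correlation of deviations -0.013). In a simulation of this comparison with 8631 genes, 95 of 100 genes changed by 1 on the log2 scale and 100 of 100 changed by 2 were called, along with 15 unchanged genes in all. Its noise was independent between arrays and genes, with no array set apart. The planted changes also make the adjustment more lenient than in the data, where 0 genes were called. It therefore checks the code and does not give the power for these brains. Alternatives covered the pseudocount, filter, scaling, probe sets, blocks, array weights, single tables and single arrays left out.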

Additional observations from a re-analysis of the deposited data

How the results depend on the processing

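The count of genes called in limma was 0 under every alternative with a test, both over all genes and among the 10 members, with a smallest adjusted p over all genes from 0.0587 (first table alone) to 0.9997 (no block for the table). Counts at an unadjusted p under 0.05 ran from 97, without the table as a block, to 880, with array weights, against 655. The difference of neuronal and progenitor genes stayed below 0 in each setting: it was -0.20 in the second table alone, where 1 array a group allows no test, and ran from -0.63 to -0.31 when any 1 array was dropped. In the first table alone Nes had -0.077. In the second table alone Tubb3 had 0.76, Map2 1.07 and Nefl 0.061. When any 1 array was dropped, Tubb3 ran from -0.50 to 0.22, Map2 from -0.93 to 0.018, Mapt from -0.42 to 0.055, Nefl from -0.40 to 0.046 and Nes from -0.077 to 0.20. The upper ends of the 5 ranges were without diabetic replicate 2. Without control replicate 1 Tubb3 had 0.076, and without control replicate 2 it had 8.81e-04. Ina ran from -0.99 to -0.43, Tubb2b from -0.47 to -0.32, Nefm from -0.51 to -0.28 and Vim from 0.13 to 0.38. With quantile normalization Vim had 0.10 and Tuba1a -0.21, and with the mean of all probe sets Vim had 0.022 and Nes 0.23. With array weights Nes had 0.069, Tuba1a -0.027, Map2 -0.48 and Nefl -0.13. With the replicate block in place of the table, limma called 0 genes, 633 had an unadjusted p under 0.05, the difference of the sets was -0.49 and Ina had an adjusted p of 0.506. The block changed no call. The cause of the turns of sign was not tested.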

Other observations

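Nes and Tubb2b had signals that differed more between the chips than between the groups. Nes read 2556 to 2637 on the diabetic arrays of MOE430A and 1312 on that of Mouse430A_2, with 2699.7 to 2784 and 897 on the control arrays. Tubb2b went the other way, with 1990.01 to 2302 and 6415 on diabetic arrays and 2874 to 3063 and 7762 on control arrays. The brightest Vim probe set had 14441 to 15388 and 11085 on diabetic arrays, and its 10057 to 13526 and 10172 on control arrays overlapped between chips. Its x_at probe set had 4394 to 4476 and 8587 on diabetic arrays and 4608 to 4668 and 10649 on control arrays. Chip and brain cannot be told apart in these shifts, since the brains of the 2 chips differ.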
